A study of Homo sapiens with 8 samples.

Results

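The p53 target genes described here were 40 genes known to be activated by the tumour suppressor p53, fixed by name and found by their symbols among the 13842 genes of the deposited expression table. Expression was measured by RNA-seq in 8 libraries of 4 groups, with 2 libraries in each. MCF10A is an immortalized, non-tumorigenic breast epithelial line, and DCIS.COM is a line of the same lineage that models ductal carcinoma in situ. Cells of either line carried a stably integrated lentiviral vector, pLOC-empty or pLOC-*MALINC1*, the latter expressing the long non-coding RNA *MALINC1*, and all were selected with blasticidin. MCF10A was grown with horse serum, epidermal growth factor, hydrocortisone, insulin and cholera toxin, and DCIS.COM with horse serum alone. Line and medium therefore cannot be told apart. No source says that the replicates came from separate transductions or cultures, so the p-values measure the spread between these libraries, which may be technical.

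p53 is a transcription factor that is held at a low level by the ubiquitin ligase MDM2 and accumulates after DNA damage, oncogene activity and other stresses. It then activates genes that stop the cell cycle, repair DNA, adjust metabolism or kill the cell, and *MDM2* itself is one of them, which closes a feedback loop. Many of these genes also respond to other factors, among them p63, a relative of p53 that binds the same DNA element and is a lineage factor of basal breast cells.

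p53 binds as a tetramer to the p53 consensus, 2 adjacent decamers that each hold a C and a G at fixed core positions. A match was searched on both strands within 2500 bases on either side of each gene's start in GRCh37 (hg19), taken as that of its canonical transcript in GENCODE, with the core C and G of both decamers kept and at most 2 mismatches elsewhere. Such a match lay near 16 of the 39 members with an annotated start (41%) and near 513 of 12976 genes of the table (3.95%). With 3 mismatches the shares were 69.2% and 21.4%. The motif is shared by p53, p63 and p73, and a match is a description of the letters, not a bound site. The sequences that follow belong to the members whose levels the results turn on, with the core bases of each decamer, its bases 4 to 7, in capitals and the strand of the gene read 5′ to 3′.
CDKN1A: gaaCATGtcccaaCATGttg
MDM2: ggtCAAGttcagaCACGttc
GDF15: catCTTGcccagaCTTGtct
PLK2: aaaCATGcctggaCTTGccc
GADD45A: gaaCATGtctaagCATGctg
BTG2: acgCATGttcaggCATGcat
PMAIP1: gggCTTGtttaccCAAGtct
BAX: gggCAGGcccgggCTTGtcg
ZMAT3: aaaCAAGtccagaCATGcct

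The *CDKN1A* match lay at chr6:36644226-36644245 on the plus strand, 2265 bases upstream of the start of the canonical transcript at 36646491. The annotated extent of the gene, which covers all its transcripts, begins within this match. That of *MDM2* lay at chr12:69202703-69202722 on the plus strand, in an intron 746 bases downstream of the start. The *PLK2* match, upstream of the gene at chr5:57758101-57758120 on the minus strand, and the *ZMAT3* match, in an intron at chr3:178787976-178787995 on the minus strand, had 0 mismatches. Those of *GDF15* (chr19:18496118-18496137), *BTG2* (chr1:203272770-203272789) and *PMAIP1* (chr18:57566781-57566800) lay upstream of the canonical transcripts, and those of *GADD45A* (chr1:68152458-68152477) and *BAX* (chr19:49458470-49458489) in an intron, all on the plus strand. The canonical *GDF15* transcript starts at 18496968, and the gene's annotated extent begins further upstream, so that the match lies within that extent.

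Between 20604377 and 37550457 reads were counted on genes per library, and the log2 values of replicates had a Pearson correlation of 0.996 to 0.997. *RN7SL1* and *RN7SL2*, the RNA of the signal recognition particle, took 8.22% to 15.7% of the reads. *MALINC1* stood at 1 and 1.51 CPM (read counts scaled to a common library size) in the MCF10A pLOC-empty libraries and at 13.2 and 11.7 with pLOC-*MALINC1*. In DCIS.COM it stood at 1.35 and 1.15 CPM without and at 24.5 and 19.2 CPM with the construct, so every library followed its vector label. The level of *MALINC1* was alike in both lines with pLOC-empty, so it does not check the label of the line. All 10 epithelial markers listed were expressed, with a sum of 26100 to 26500 CPM in MCF10A with pLOC-empty, 32000 to 32700 with pLOC-*MALINC1*, and 8660 to 9000 in DCIS.COM. The leukocyte marker *CD14*, the fibroblast marker *COL1A1* and the endothelial marker *PECAM1* had at most 4.27, 15.9 and 7.21 CPM, and the defining markers *PTPRC*, *COL1A2* and *CDH5* were not analysed here. *PECAM1* fell in DCIS.COM with pLOC-*MALINC1*, to 0.0874 and 0.177 CPM. The luminal markers *ESR1*, *GATA3* and *FOXA1* added up to 17 to 48.8 CPM.

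All 40 members passed the filter on low values and reached 5 CPM or more in their highest group. Their counts ran from 47 reads for *ACER2* to 18358 reads for *SFN* in a library, and the median over members of the mean level was 38.4 CPM, against 22.1 CPM over all genes. Per kilobase of annotated exon, *SFN* had the highest level of the 40 in each of the 4 groups, at 201 CPM per kilobase in MCF10A and 203 in DCIS.COM with pLOC-empty. At the other end, *ACER2* had 0.691 CPM per kilobase in MCF10A and *ABHD4* 0.801 in DCIS.COM with pLOC-empty. In bulk RNA, fewer cells of a type and less RNA per cell cannot be told apart.

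In MCF10A, more members were higher than lower with pLOC-*MALINC1*. A gene was called where limma's Benjamini-Hochberg adjusted p over all genes was below 0.01, and by this rule 19 of the 40 members rose, 12 fell and 9 were not called. Of all genes, 21.5% were called higher and 18.1% lower. Among the 11498 genes that also reached 5 CPM the shares were 24.5% and 19.6%. The median log2 fold change of the members was 0.15, against 0.0 over all genes, and 2 members rose and 1 fell by more than 2-fold, against 2.99% and 2.51% of all genes. The rises included the p21 gene *CDKN1A*, the 14-3-3 sigma gene *SFN*, *PMAIP1* and the negative regulator *MDM2*, while *TP53I3*, *BTG1* and *NINJ1* were among those that fell. Without pLOC-empty replicate 1, 7 members were called lower, against 12.3% of all genes.

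In DCIS.COM, most changes of members went down. There, 23 of the 40 fell, 4 rose and 13 were not called, where 16.7% of all genes were called lower and 16.4% higher. Among genes at 5 CPM or more the shares were 18.8% and 18.9%. The median log2 fold change was -0.27, against 0.009 over all genes, and 34 of 40 members had a negative sign. *GDF15* and *BTG1* fell by more than 2-fold, against 3.08% of all genes, and 0 members rose that far, against 1.44%. The pLOC-*MALINC1* libraries of DCIS.COM had larger scaling factors (1.08 and 1.11) than the pLOC-empty ones (0.996 and 1.02). The pLOC-*MALINC1* replicates of DCIS.COM differed by 20.2 times the variance expected from counting, against 3.23 to 6.18 in the other groups. This is a mean over genes that includes *RN7SL1* and *RN7SL2*, which took 11.5% and 8.22% of the reads in these libraries. The part of these RNAs in the excess was not tested. Under scaling to library totals, which moves the median of all genes to 0.125, 16 members fell and 4 rose, against 9.80% of all genes called lower and 27.3% called higher. With only the 2 DCIS.COM groups fitted 15 fell and 2 rose, against 9.83% and 8.65%. The 4 rises became 1 without pLOC-*MALINC1* replicate 1 and 2 without any other single DCIS.COM library.

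**Figure D1:**
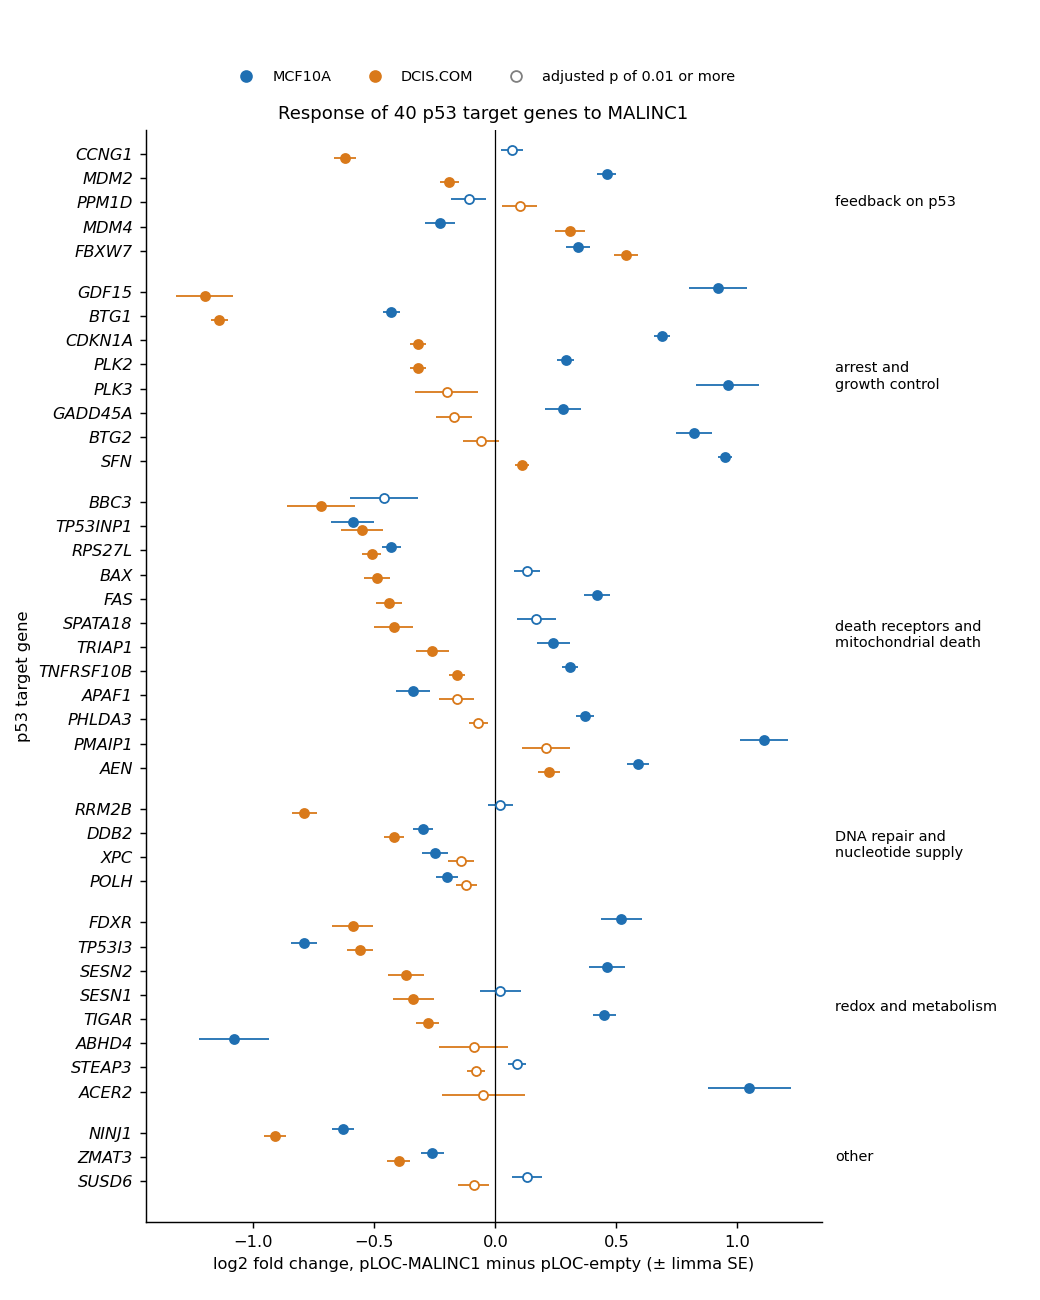
Log2 fold change of each of the 40 members between pLOC-*MALINC1* and pLOC-empty, with the limma standard error as a horizontal bar, in MCF10A (blue) and DCIS.COM (orange), by role in the p53 pathway. Open circles did not pass the adjusted p of 0.01. In arrest and growth control 7 of 8 blue points lie to the right of 0 and 7 of 8 orange points to the left.

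The vector comparisons of the lines share no library, so their calls can be set side by side. Their log2 fold changes had a Pearson correlation of 0.278 over the members and -0.0148 over all genes. Of the 40 members, 10 rose in MCF10A and fell in DCIS.COM (*MDM2*, *CDKN1A*, *PLK2*, *GDF15*, *FAS*, *TNFRSF10B*, *TRIAP1*, *SESN2*, *TIGAR* and *FDXR*), and 4.20% of all genes did so. Whether these 10 exceed the overlap that 19 rises in MCF10A and 23 falls in DCIS.COM give by themselves was not tested. A further 7 fell in both lines (*BTG1*, *TP53INP1*, *RPS27L*, *DDB2*, *TP53I3*, *ZMAT3* and *NINJ1*), against 3.97% of all genes. *FBXW7*, *SFN* and *AEN* rose in both, against 5.42% of all genes, and *MDM4* was the only member that fell in MCF10A and rose in DCIS.COM, against 3.61%. These last counts were near the shares of all genes. *BTG2*, *GADD45A*, *PLK3*, *PMAIP1*, *PHLDA3* and *ACER2* passed as higher and *APAF1*, *XPC*, *POLH* and *ABHD4* as lower in MCF10A with no call in DCIS.COM, against 11.9% and 10.5% of all genes, whereas *CCNG1*, *BBC3*, *BAX*, *SPATA18*, *RRM2B* and *SESN1* passed as lower in DCIS.COM with no call in MCF10A, against 8.57%. *PPM1D*, *STEAP3* and *SUSD6* passed in neither line, against 44.4%. The test of the difference itself, the response in DCIS.COM minus that in MCF10A, was called negative for 24 members and positive for 2 (*MDM4* and *ABHD4*), against 20.3% and 15.6% of all genes. The median of this difference was -0.46 over the members and -0.007 over all genes, and 5 members differed by more than 2-fold in the negative direction and 0 in the positive one, against 5.22% and 3.98% of all genes.

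**Figure D2:**
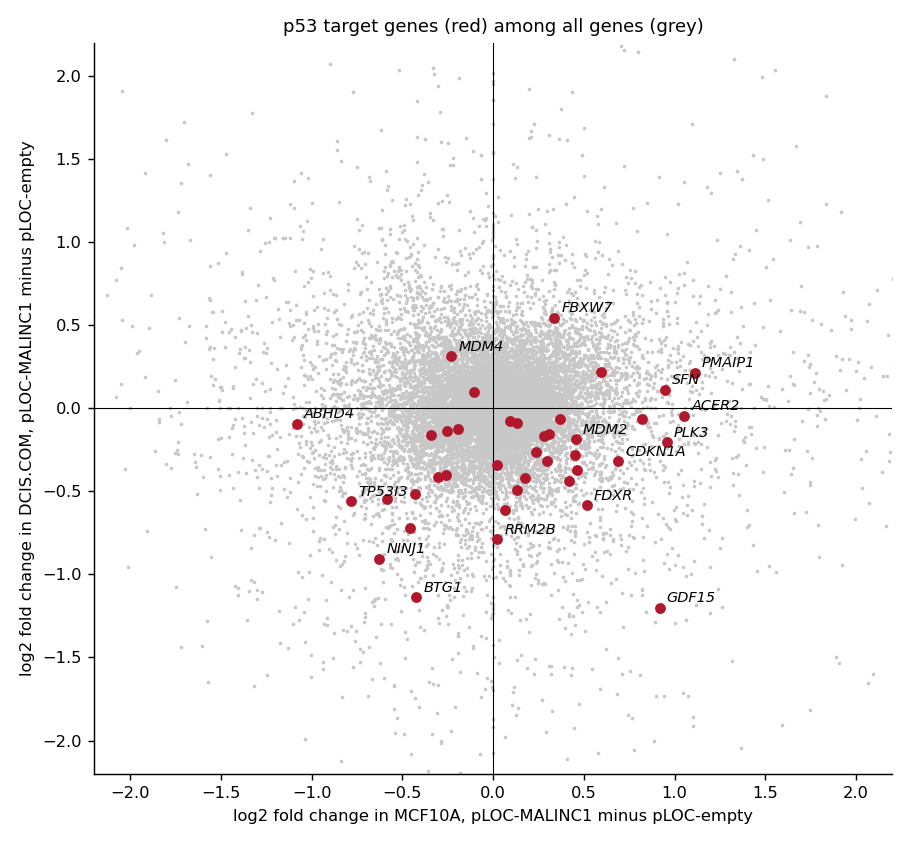
Log2 fold change with pLOC-*MALINC1* in DCIS.COM (vertical) against MCF10A (horizontal) for all genes (grey) and the 40 members (red), with 255 genes beyond the axes of 2.2 log2 units. Most red points lie below 0 on the vertical axis, and *GDF15* stands in the lower right, at 0.92 in MCF10A and -1.20 in DCIS.COM.

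The feedback regulators of p53 moved in different directions. *MDM2* (chr12:69201957-69239324, plus strand), which ubiquitinates p53, was at 191 and 188 CPM in MCF10A with pLOC-empty and at 268 and 252 CPM with pLOC-*MALINC1*. In DCIS.COM it was at 265 and 277 CPM with pLOC-empty and at 232 and 244 CPM with pLOC-*MALINC1*. The groups did not overlap in either line, and the MCF10A libraries with pLOC-*MALINC1* came near those of DCIS.COM. *MDM2* rose by a log2 fold change of 0.46 ± 0.0392 (SE, adjusted p = 1.28e-06) in MCF10A, and was at -0.19 ± 0.0392 (adjusted p = 0.00196) in DCIS.COM, a difference of -0.64 ± 0.0555 (adjusted p = 1.53e-06). The DCIS.COM call rests on the scaling, on the model and on single libraries. The change was -0.07 under library totals and -0.15 without pLOC-empty replicate 2 or without pLOC-*MALINC1* replicate 1, and the call was lost in each case. At an unchanged -0.19, the call was also lost without limma's trend and with only the DCIS.COM groups fitted.

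*MDM4*, the partner of *MDM2* that masks the activation domain of p53, had 17.8 and 16.4 CPM in MCF10A with pLOC-empty and 14.9 and 14.2 with pLOC-*MALINC1*. In DCIS.COM it had 37.6 and 40.2 CPM with pLOC-empty and 48.5 and 48.2 CPM with pLOC-*MALINC1*. It thus fell in MCF10A (-0.23 ± 0.0621) and rose in DCIS.COM (0.31 ± 0.0621), opposite to *MDM2* in both lines. *CCNG1*, a cyclin that brings a phosphatase to MDM2, fell in DCIS.COM from 272 and 287 CPM to 179 and 186 CPM (-0.62 ± 0.0448, adjusted p = 3.61e-07). In MCF10A its libraries overlapped, with 163 and 149 CPM and 161 and 165 CPM. *FBXW7*, the substrate receptor of a ubiquitin ligase for MYC and cyclin E, rose in both lines, by 0.34 ± 0.0491 and 0.54 ± 0.0491. *PPM1D*, a phosphatase that removes activating marks from p53, stayed between 17.4 and 20.7 CPM in all 8 libraries.

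The arrest and growth control genes differed between the lines throughout the group. Of 8 members, 7 rose and 1 fell in MCF10A, against 21.5% and 18.1% of all genes. In DCIS.COM 1 rose and 4 fell, against 16.4% and 16.7%. All 8 had a difference that was called negative, with a median of -0.86, against 20.3% of all genes so called. *CDKN1A* (chr6:36644237-36655114, plus strand) encodes p21, an inhibitor of cyclin-dependent kinases. It was at 129 and 130 CPM in MCF10A with pLOC-empty and at 207 and 210 CPM with pLOC-*MALINC1*. In DCIS.COM it was at 211 and 203 CPM with pLOC-empty and at 165 and 167 CPM with pLOC-*MALINC1*. The spread within each group was small beside these steps, and *CDKN1A* rose by 0.69 ± 0.0326 (adjusted p = 6.94e-09), or 1.61-fold, in MCF10A and fell by 0.32 ± 0.0326 (adjusted p = 7.04e-06) in DCIS.COM. The difference of -1.01 ± 0.0461 had an adjusted p of 4.39e-09.

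*GDF15* (chr19:18485541-18499986, plus strand), a secreted cytokine of the TGFB family and a marker of cell stress, had the largest difference between the lines among the members. It was at 3.31 and 4.12 CPM in MCF10A with pLOC-empty and at 7.58 and 6.54 CPM with pLOC-*MALINC1*. In DCIS.COM it was at 27.4 and 28.9 CPM with pLOC-empty and at 12.7 and 11.7 CPM with pLOC-*MALINC1*. It rose by 0.92 ± 0.118 (adjusted p = 3.82e-05) and fell by 1.20 ± 0.118 (adjusted p = 4.84e-06), 2.30-fold, respectively, which gave a difference of -2.12 ± 0.166. With only the MCF10A groups fitted, the rise in that line was not called.

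*SFN*, which holds cell cycle kinases in the cytoplasm and is an epithelial gene, went from 261 and 264 CPM to 511 and 500 CPM in MCF10A (0.95 ± 0.0298, adjusted p = 2.08e-10). In DCIS.COM it went from 267 and 263 CPM to 286 and 287 CPM (0.11 ± 0.0298, adjusted p = 0.00881), and the difference of -0.83 ± 0.0422 was called. *BTG2*, an antiproliferative gene, stood at 8.41 and 7.97 CPM and then 14.1 and 14.9 CPM in MCF10A (0.82 ± 0.0753). In DCIS.COM its groups overlapped, with 31.7 and 36 CPM and 32.8 and 31.8 CPM. *PLK3*, a kinase of the stress response, rose in MCF10A from 9 and 10.2 CPM to 17.9 and 19.5 CPM (0.96 ± 0.13). Its DCIS.COM values of 7.37 and 7.02 CPM and 7.22 and 5.38 CPM overlapped. *PLK2* and *GADD45A*, a related kinase and a growth arrest protein, rose by 0.29 and 0.28 in MCF10A, and only *PLK2* was called lower in DCIS.COM (-0.32, against -0.17 for *GADD45A*).

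*BTG1*, a relative of *BTG2*, was the member of this group that fell in both lines. It was at 213 and 208 CPM and then at 159 and 154 CPM in MCF10A (-0.43 ± 0.0346), and at 218 and 225 CPM and then at 99 and 102 CPM in DCIS.COM (-1.14 ± 0.0346, adjusted p = 1.64e-10). The fall in DCIS.COM was the deeper one (difference -0.71 ± 0.049, adjusted p = 1.95e-07). Of its annotated exon length, 10.4% is shared with a gene on the same strand, *LINC01619*.

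**Figure D3:**
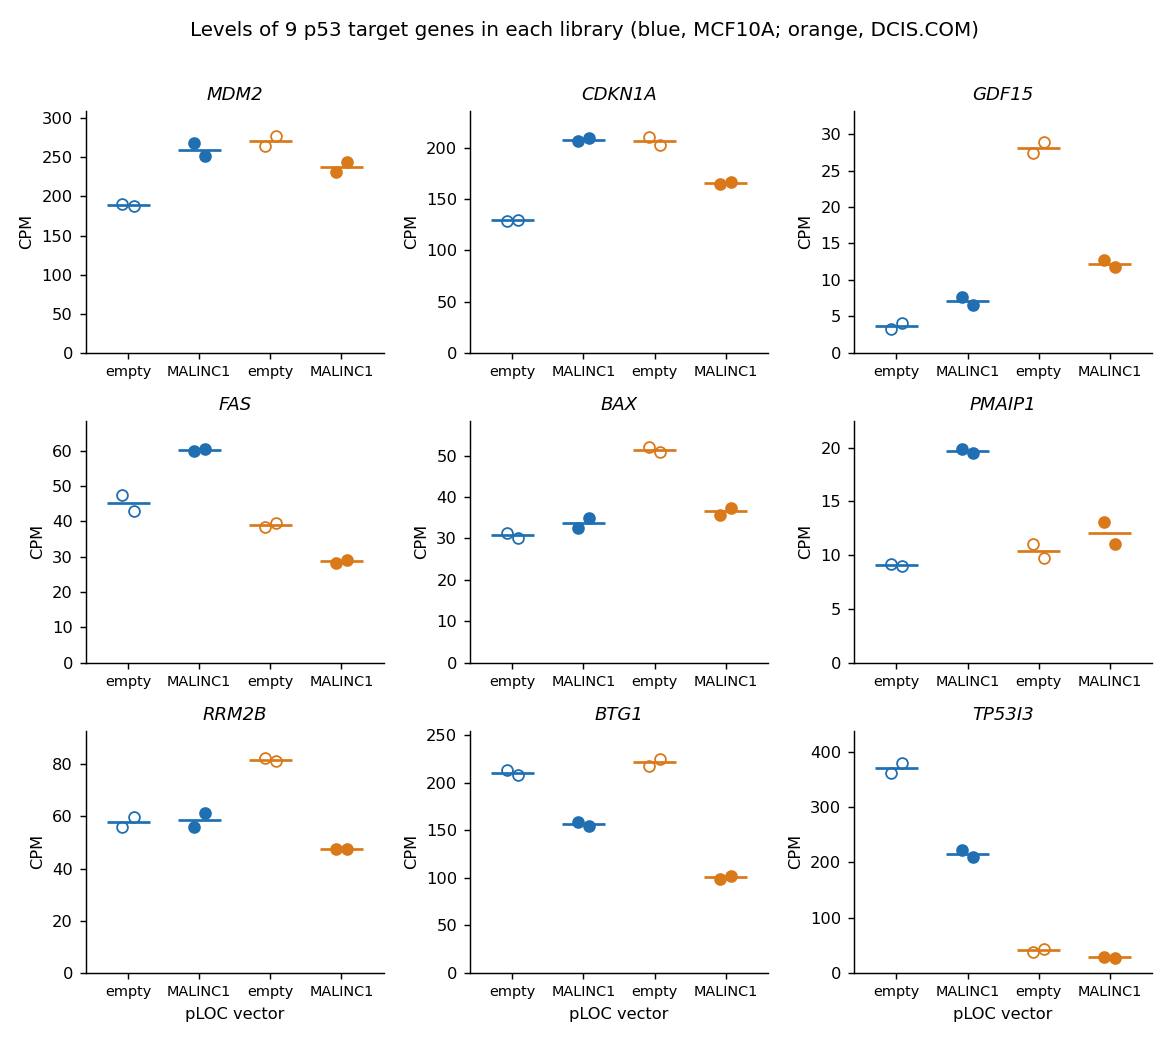
CPM in each library for 9 members (*MDM2*, *CDKN1A*, *GDF15*, *FAS*, *BAX*, *PMAIP1*, *RRM2B*, *BTG1* and *TP53I3*) in MCF10A (blue) and DCIS.COM (orange) with pLOC-empty (open) or pLOC-*MALINC1* (filled), and a line at the mean of each pair. For *MDM2*, *CDKN1A*, *GDF15* and *FAS* the pLOC-*MALINC1* points are above the pLOC-empty points in MCF10A and below them in DCIS.COM.

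Among the 12 genes of the death receptors and the mitochondrial death pathway, 6 rose and 3 fell in MCF10A, against 21.5% and 18.1% of all genes. In DCIS.COM 1 rose and 8 fell, against 16.4% and 16.7%, so that the rises there are near the share of all genes. *FAS* (chr10:90750414-90775542, plus strand), the receptor of FAS ligand, was at 47.6 and 42.9 CPM and then 60 and 60.6 CPM in MCF10A, and at 38.4 and 39.5 CPM and then 28.2 and 29.2 CPM in DCIS.COM. It rose by 0.42 ± 0.0537 (adjusted p = 4.11e-05) and fell by 0.44 ± 0.0537 (adjusted p = 3.17e-05), a difference of -0.85 ± 0.0759. Genes on the opposite strand share 25.7% of its exon length, and the strand setting of the counting is not given in the sources used here. *TNFRSF10B*, a receptor of TRAIL, went the same ways by smaller steps, 0.31 ± 0.0335 and -0.16 ± 0.0335.

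*PMAIP1* encodes NOXA, a BH3-only protein that blocks MCL1. It had the largest rise of any member in MCF10A, from 9.14 and 8.99 CPM to 19.9 and 19.5 CPM, or 2.16-fold (1.11 ± 0.0988, adjusted p = 1.69e-06). In DCIS.COM its level was 11 and 9.74 CPM with pLOC-empty and 13.1 and 11 CPM with pLOC-*MALINC1*, and the change was not called. *BBC3* encodes PUMA, another BH3-only protein. It had 3.28 and 3.23 CPM and then 2.51 and 2.19 CPM in MCF10A, which was not called (-0.46 ± 0.141, adjusted p = 0.0153). In DCIS.COM it fell from 6.2 and 7.07 CPM to 3.84 and 4.14 CPM (-0.72 ± 0.141, adjusted p = 0.00117), a call lost without pLOC-empty replicate 2 (-0.63) or without pLOC-*MALINC1* replicate 1 (-0.67). These BH3-only genes thus did not move together, and the response of *BBC3* did not pass as different between the lines (-0.26 ± 0.199, adjusted p = 0.302).

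*BAX* (chr19:49458072-49465055, plus strand), which forms the pore in the mitochondrial outer membrane, was at 31.4 and 30.2 CPM and then 32.5 and 35 CPM in MCF10A, a change of 0.13 ± 0.053 that was not called. In DCIS.COM it fell from 52 and 50.9 CPM to 35.7 and 37.4 CPM (-0.49 ± 0.053, adjusted p = 1.08e-05), which brought it near the MCF10A level. *AEN*, an exonuclease that digests DNA in dying cells, rose in both lines, by 0.59 ± 0.0451 and 0.22 ± 0.0451. *TP53INP1* and *RPS27L*, a nuclear cofactor of p53 and a ribosomal protein homologue, fell in both, by 0.59 and 0.43 in MCF10A and by 0.55 and 0.51 in DCIS.COM, with no called difference between the lines. *PHLDA3*, which competes with AKT for membrane lipids, rose in MCF10A (0.37 ± 0.0388) and shares 18.4% of its exon length with another gene on the same strand. *APAF1*, the core of the apoptosome, fell in MCF10A (-0.34 ± 0.071). *TRIAP1*, a small mitochondrial survival protein, moved by 0.24 and -0.26, and *SPATA18*, a protein of mitochondrial quality control, by 0.17 (not called) and -0.42.

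With pLOC-*MALINC1*, 0 of the 4 genes of DNA repair and nucleotide supply rose in either line, and 3 fell in MCF10A and 2 in DCIS.COM. Of all genes, 21.5% and 16.4% were called higher in these lines and 18.1% and 16.7% lower. The absence of rises among 4 genes is near those shares. *RRM2B* (chr8:103216730-103251189, minus strand), the p53-inducible subunit of ribonucleotide reductase, was at 55.8 and 59.9 CPM and then 56 and 61.5 CPM in MCF10A, where the groups overlapped. In DCIS.COM it fell from 82.6 and 81.1 CPM to 47.3 and 47.4 CPM (-0.79 ± 0.0512, adjusted p = 1.29e-07), below every MCF10A library. *DDB2*, which recognizes ultraviolet damage, fell in both lines (-0.30 ± 0.041 and -0.42 ± 0.041). *XPC*, the damage sensor of nucleotide excision repair, and *POLH*, a polymerase that copies past lesions, fell in MCF10A (-0.25 and -0.20) and were at -0.14 and -0.12 in DCIS.COM without a call. Genes on the opposite strand share 24.6% of the exon length of *XPC*.

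In redox and metabolism, with 8 members, 4 rose and 2 fell in MCF10A, against 21.5% and 18.1% of all genes. In DCIS.COM 0 rose and 5 fell, against 16.4% and 16.7%, and the absence of rises among 8 genes is near that share. *FDXR*, a mitochondrial electron carrier of iron-sulfur cluster and steroid synthesis, was at 11.5 and 10.5 CPM and then 14.3 and 17.3 CPM in MCF10A. In DCIS.COM it was at 42.5 and 43.8 CPM and then 28.5 and 29 CPM. The changes of 0.52 ± 0.0845 and -0.59 ± 0.0845 were both called, and their difference was -1.10 ± 0.12 (adjusted p = 1.06e-05). *SESN2*, an inhibitor of mTORC1 under stress, and *TIGAR*, a phosphatase that lowers glycolysis, also rose in MCF10A (0.46 ± 0.0746 and 0.45 ± 0.0477) and fell in DCIS.COM (-0.37 ± 0.0746 and -0.28 ± 0.0477). Of the annotated exon length of *TIGAR*, 18.1% is shared with another gene on the same strand. *SESN1*, the relative of *SESN2*, was at 0.02 in MCF10A and fell by 0.34 in DCIS.COM.

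*TP53I3* (chr2:24300303-24308731, minus strand), a quinone oxidoreductase, fell in both lines. It was at 363 and 381 CPM and then 223 and 209 CPM in MCF10A (-0.79 ± 0.0541, adjusted p = 1.85e-07), and at 38.3 and 43.2 CPM and then 27.8 and 27.4 CPM in DCIS.COM (-0.56 ± 0.0541, adjusted p = 4.49e-06). *ACER2*, a ceramidase of the Golgi, rose in MCF10A from 1.62 and 2.21 CPM to 3.76 and 4.27 CPM (1.05 ± 0.171, adjusted p = 0.000259), at the lowest counts of the set and with no call when only the MCF10A groups were fitted. *ABHD4*, a lipase of the phospholipid pathway, fell there from 8.03 and 8.81 CPM to 3.73 and 4.16 CPM (-1.08 ± 0.143, adjusted p = 4.9e-05). In DCIS.COM neither passed, with *ACER2* at 6.16 and 7.92 CPM and then 6.87 and 6.65 CPM and *ABHD4* at 3.26 and 2.77 CPM and then 2.65 and 2.99 CPM. The difference between the lines was -1.10 ± 0.242 for *ACER2* (adjusted p = 0.00249) and 0.99 ± 0.202 for *ABHD4* (adjusted p = 0.00153). The call for *ACER2* was lost without any of 5 single libraries, MCF10A pLOC-empty replicate 1 (-0.88), MCF10A pLOC-*MALINC1* replicate 2 (-1.01), DCIS.COM pLOC-empty replicate 2 (-0.92) and DCIS.COM pLOC-*MALINC1* replicate 1 (-1.12) or 2 (-1.08). *STEAP3*, a ferrireductase, was not called in either line (0.09 and -0.08).

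Of the remaining members, *NINJ1*, which ruptures the plasma membrane of dying cells, fell in both lines. It had 28.1 and 28.2 CPM and then 17.9 and 18.5 CPM in MCF10A (-0.63 ± 0.0449), and 105 and 108 CPM and then 56.7 and 56.9 CPM in DCIS.COM (-0.91 ± 0.0449, adjusted p = 1.14e-08). *ZMAT3*, an RNA-binding regulator of splicing, fell by 0.26 ± 0.0487 and 0.40 ± 0.0487. *SUSD6* was at 0.13 and -0.09 with no call.

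The members with a match to the p53 consensus near their start were also counted apart. Of these 16, 10 rose and 2 fell in MCF10A, 1 rose and 11 fell in DCIS.COM, and 14 had a difference between the lines that was called negative, with a median of -0.63. Of the 23 without a match, 8 rose and 10 fell in MCF10A, 3 rose and 11 fell in DCIS.COM, and 9 had a negative difference, with a median of -0.22. For the vector comparison of MCF10A, 21.5% of all genes were called higher and 18.1% lower. The corresponding shares for DCIS.COM were 16.4% and 16.7%. A negative difference between the lines was called for 20.3% of all genes. Calls among the 513 genes of the table with a match were not counted. The contrast between the subsets of members was not tested, nor was a link between the match and the response.

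Between the lines with pLOC-empty, 22 members were higher in DCIS.COM and 10 were lower, where 37.9% of all genes were higher and 36.0% lower. The median log2 fold change was 0.29, and 9 members were more than 2-fold higher and 2 more than 2-fold lower, against 15.6% and 13.0% of all genes. *GDF15* was 7.50-fold higher in DCIS.COM (2.91 ± 0.118, adjusted p = 1.32e-10). The other members over 2-fold higher were *BTG2* (2.04), *FDXR* (1.96), *NINJ1* (1.92), *ACER2* (1.84), *MDM4* (1.18), *SESN2* (1.07), *SESN1* (1.02) and *BBC3* (1.01). *TP53I3* was 9.13-fold lower (-3.19 ± 0.0541, adjusted p = 5.73e-14), and *ABHD4* was also lower (-1.46 ± 0.143). *MDM2*, *CDKN1A* and *BAX* were higher by 0.51 ± 0.0392, 0.68 ± 0.0326 and 0.74 ± 0.053. *FAS* was at -0.21 ± 0.0537, a call lost under quantile normalization (-0.15), under library totals (-0.14), without the trend, and without MCF10A pLOC-empty replicate 1 (-0.14) or DCIS.COM pLOC-empty replicate 1 (-0.20).

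With pLOC-*MALINC1*, 14 members were higher in DCIS.COM than in MCF10A and 20 were lower, against 35.7% and 37.2% of all genes, with a median of -0.15. This split turned with the scaling. It was 17 and 16 under quantile normalization, against 36.7% and 34.4% of all genes. Under library totals, which moves the median of all genes to 0.204, it was 18 and 13, against 46.1% and 26.7%. *TP53I3* was 7.80-fold lower in DCIS.COM (-2.96 ± 0.0541), and *MDM4* and *NINJ1* were higher by 1.73 ± 0.0621 and 1.64 ± 0.0449. *BTG2* was over 2-fold higher (1.15 ± 0.0753), and *PLK3* (-1.57 ± 0.13), *GADD45A* (-1.15 ± 0.0753) and *FAS* (-1.07 ± 0.0537) over 2-fold lower, against 14.4% of all genes higher and 12.2% lower by that much. *GDF15* and *FDXR* were higher by 0.79 ± 0.118 and 0.86 ± 0.0845, and *CDKN1A* was lower (-0.33 ± 0.0326). *MDM2* was at -0.13 ± 0.0392 and turned to 0.07 under library totals and to 0.05 when *RN7SL1* and *RN7SL2* were also left out of the totals, and of the single libraries only MCF10A or DCIS.COM pLOC-*MALINC1* replicate 2 could be left out without losing its call (-0.09 to -0.13 for the others). *BAX* was at 0.11 ± 0.053 with no call, and was called at 0.21 under quantile normalization and at 0.31 under library totals.

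The line comparisons draw on the same libraries as the vector comparisons and add no independent measure of them. Set side by side, 13 members were higher in DCIS.COM with either vector and 10 were lower with either, near the 28.4% and 28.8% of all genes that were. *MDM2*, *CDKN1A*, *TRIAP1*, *RRM2B* and *TIGAR* were called higher with pLOC-empty and lower with pLOC-*MALINC1*, against 2.45% of all genes. *XPC* and *POLH* were not called in either line comparison.

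**Figure D4:**
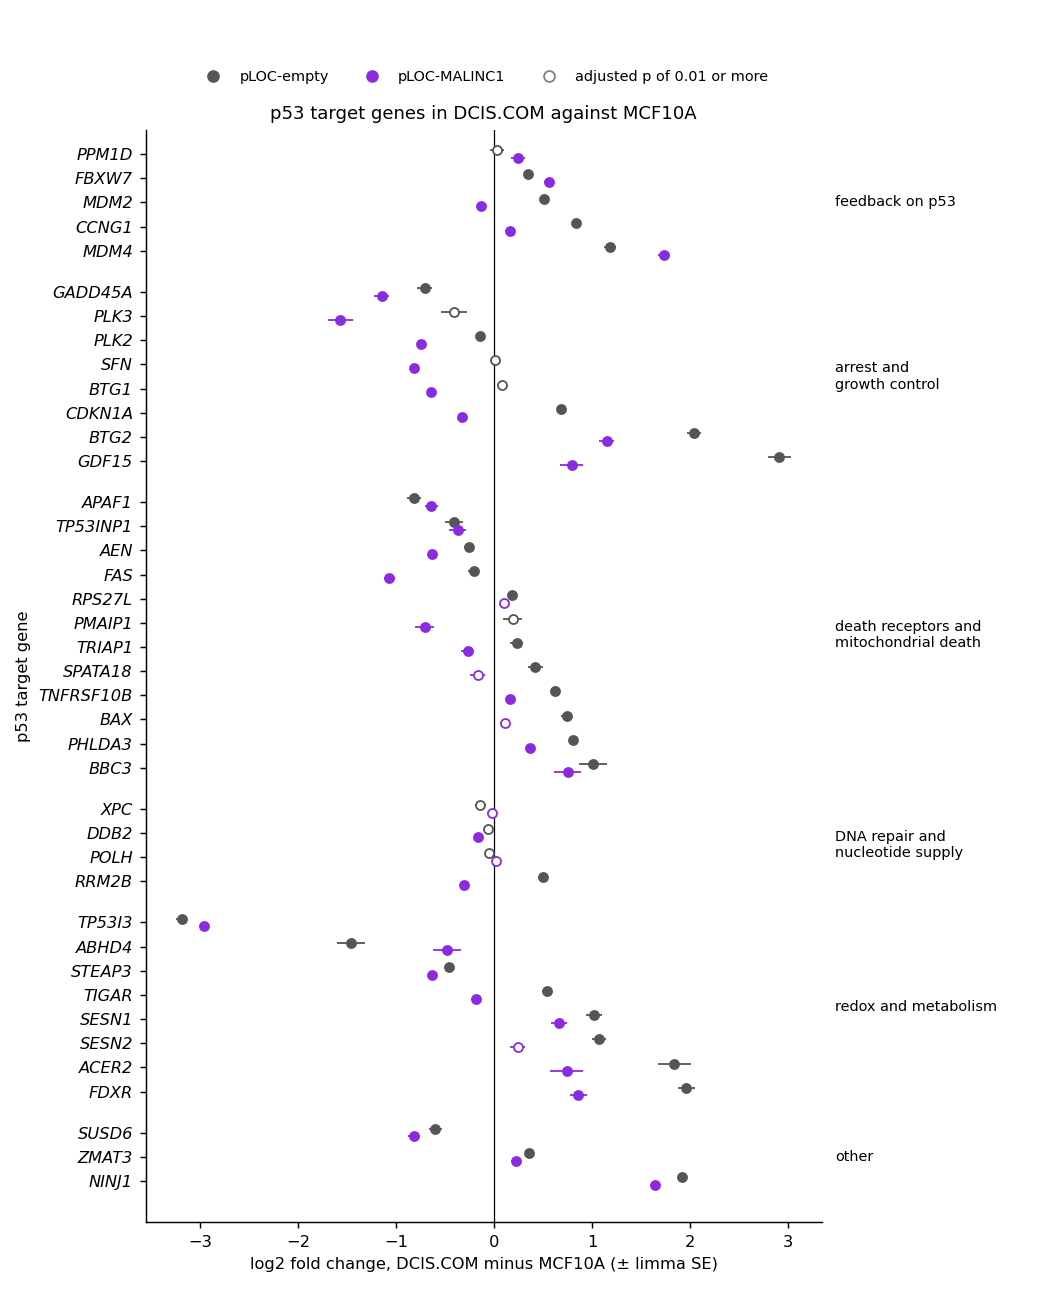
Log2 fold change of each member in DCIS.COM against MCF10A, with the limma standard error, in cells with pLOC-empty (grey) and pLOC-*MALINC1* (purple). Open circles did not pass the adjusted p of 0.01. *TP53I3* stands at -3.19 and -2.96, and *GDF15* moves from 2.91 to 0.79.

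The genes of the other lists are read against the same shares of all genes as the members, 21.5% called higher and 18.1% lower in MCF10A and 16.4% and 16.7% in DCIS.COM. Of 22 regulators and cofactors of p53, 5 were higher and 4 lower in MCF10A with pLOC-*MALINC1*, near those shares, and 7 were higher and 1 lower in DCIS.COM. *TP63*, whose isoforms cannot be separated in gene counts, rose in MCF10A from 5.24 and 4.6 CPM to 41.7 and 40.1 CPM (3.04 ± 0.065, adjusted p = 1.08e-11), and had 55.8 and 57.4 CPM and then 49.1 and 50 CPM in DCIS.COM (-0.19 ± 0.065, adjusted p = 0.0291). The part of *TP63* in the members' changes was not tested. *HIPK2*, a kinase that activates p53, fell in MCF10A (-0.43 ± 0.0727) and rose in DCIS.COM (0.50 ± 0.0727), as did *ATM* (-0.24 ± 0.0559 and 0.23 ± 0.0559), the kinase that signals DNA breaks.

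Other p53 targets outside the 40 were counted from a separate list. Of 28 tested, 13 were higher and 4 lower in MCF10A, and 4 were higher and 13 lower in DCIS.COM. The autophagy gene *DRAM1* was at -0.04 in MCF10A and fell in DCIS.COM from 27.4 and 26.4 CPM to 13.3 and 12.8 CPM (-1.03 ± 0.0628). The TRAIL receptor gene *TNFRSF10A* rose in MCF10A from 26.5 and 27.9 CPM to 56.7 and 60 CPM (1.10 ± 0.0546). *PERP*, an epithelial target of p53 and p63, rose in both lines (0.50 ± 0.0416 and 0.53 ± 0.0416).

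Of 20 cell cycle genes that p21 lowers through the DREAM complex, 11 fell and 1 rose in MCF10A, and 10 fell and 4 rose in DCIS.COM, while *CDKN1A* moved in opposite directions. *CCNB1*, the mitotic cyclin, was at 0.13 in MCF10A (not called) and fell in DCIS.COM (-0.70 ± 0.056), whereas *E2F1* fell in MCF10A (-0.71 ± 0.0554) and rose in DCIS.COM (0.39 ± 0.0554).

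A pair of other programmes shares members with the set. *SESN2*, *GDF15*, *PMAIP1* and *TNFRSF10B* are also induced by the integrated stress response. Of 14 other genes of that response, 5 rose and 3 fell in MCF10A, and 0 rose and 6 fell in DCIS.COM, and *TRIB3*, an inhibitor of AKT, went from 21 and 23.1 CPM to 48.9 and 49.9 CPM in the former (1.16 ± 0.0533) and from 57.7 and 56 CPM to 37.7 and 38.5 CPM in the latter (-0.58 ± 0.0533). *PLK2*, *PLK3*, *BTG2* and *GADD45A* are also immediate-early or serum-responsive genes. Of 12 other immediate-early genes, 5 rose and 3 fell in MCF10A and 7 rose and 1 fell in DCIS.COM. The largest called changes in MCF10A at 5 CPM or more were *FOSL1* (1.76), *FOS* (1.63 ± 0.134), *MYC* (1.19) and *DUSP1* (-1.05). In DCIS.COM they were *ZFP36* (0.63), *JUN* (0.59), *FOSL1* (0.53) and *DUSP1* (0.43), all rises, and *FOS* was at -0.25 ± 0.134, not called. Of the 10 epithelial markers, 7 rose and 1 fell in MCF10A and 3 rose and 3 fell in DCIS.COM. The part of these programmes and markers in the members' changes was not tested.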

How the data were processed

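RNA-seq of MCF10A and DCIS.COM cells with pLOC-empty or pLOC-*MALINC1* was used as deposited, 2 libraries per group. Total RNA of subconfluent cultures was made into libraries with ScriptSeq v2 and read as 76 nt pairs. Alignment by the authors was to hg19 with Rsubread, counting on UCSC genes was by featureCounts, and normalization was by edgeR. The authors deposited log2 CPM, to which a prior count of 2 reads, scaled to library size, had been added. Tool versions, the strand setting and the filter of the authors are not given in the sources used here. Such libraries keep *RN7SL1* and *RN7SL2*, whose share of the reads varied and acts on CPM.

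Whole reads came out of 100% of the values (tolerance 0.01 reads) and gave depth, CPM without the prior and the alternatives. The mean of each of the 4 groups was fitted to the log2 CPM with limma 3.58.1 in R 4.3.3 (trend, Benjamini-Hochberg over all 13842 genes, each of which had 0.5 CPM in 2 libraries). A gene was called at an adjusted p below 0.01. A fold change on this scale understates that of low genes. Its SE had a median of 0.0537 over the members, from 4 residual and 7.98 prior degrees of freedom. The steps were tested on simulated data.

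The members, the other gene lists and the tests were chosen with earlier results of these data known. One gene of the list of upstream regulators is not reported here and was left out of its counts. Values in every library were given for members over 2-fold, apart from *GADD45A*, *SESN1* and *SESN2*, for which only log2 fold changes were given. They were also given for the next largest changes among those called at 5 CPM or more, and for *MDM2*, *CDKN1A*, *BAX* and *FAS*. Genes named from the other lists, and further members with values, were chosen after their values were seen. Coordinates and sequences are from GRCh37 with GENCODE release 44, to which 95.1% of genes matched by symbol. Alternatives changed the scale, filter, scaling, model, threshold and libraries.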

Additional observations from a re-analysis of the deposited data

Results flagged for a closer look

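For 26 of the 40 members the response to pLOC-*MALINC1* differed between the lines by the limma contrast of the responses (DCIS.COM minus MCF10A, log2 scale, 2 libraries per group). This contrast was called negative for 20.3% of all genes and positive for 15.6%. The difference was -2.12 for *GDF15*, -1.16 for *PLK3*, -1.10 for *FDXR*, -1.10 for *ACER2* and -1.01 for *CDKN1A*. It was -0.90 for *PMAIP1*, -0.88 for *BTG2*, -0.85 for *FAS*, -0.83 for *SFN*, -0.83 for *SESN2*, -0.81 for *RRM2B*, -0.73 for *TIGAR*, -0.71 for *BTG1*, -0.68 for *CCNG1*, -0.64 for *MDM2*, -0.62 for *BAX*, -0.61 for *PLK2*, -0.59 for *SPATA18* and -0.50 for *TRIAP1*. It was smaller for *TNFRSF10B* (-0.47), *GADD45A* (-0.45), *PHLDA3* (-0.43), *AEN* (-0.37) and *NINJ1* (-0.28). *MDM4* and *ABHD4* alone among these 26 differed in the other direction, by 0.55 and 0.99. *CDKN1A*, *GDF15*, *FAS*, *MDM2*, *FDXR*, *PLK2*, *TNFRSF10B*, *TRIAP1*, *SESN2*, *TIGAR* and *MDM4* had a called change of opposite sign in the lines. Over all genes, 4.20% rose in MCF10A and fell in DCIS.COM, and 3.61% did the reverse, as *MDM4* did.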

How the results depend on the processing

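Of 62 named values, 54 kept their direction and call in every alternative fit, with the threshold of adjusted p below 0.01 unchanged. The other thresholds were applied only to the counts of members. The counts of members called higher and lower were within 1.5 times the reported ones, apart from the following. With a change over 2-fold also required they were 2 and 1 in MCF10A, 0 and 2 in DCIS.COM, 0 and 5 for the difference between the lines, 9 and 2 between the lines with pLOC-empty, and 3 and 4 with pLOC-*MALINC1*. The 4 rises in DCIS.COM became 1 without the trend and 2 with only the compared groups fitted, and the 23 falls became 15 in the latter. The 2 positive differences between the lines became 4 under library totals, with or without *RN7SL1* and *RN7SL2*, and 4 at an adjusted p below 0.05. The 20 members lower in DCIS.COM with pLOC-*MALINC1* became 13 under both kinds of library totals. With only the compared groups fitted *ACER2* and *GDF15* in MCF10A and *BBC3* and *MDM2* in DCIS.COM were not called. For DCIS.COM against MCF10A with pLOC-*MALINC1*, *MDM2* reversed from -0.13 to 0.07 and, without *RN7SL1* and *RN7SL2*, 0.05. Other than the fitting and the threshold themselves, the cause was not tested. Leaving out 1 library gave 17 to 18 rises and 7 to 12 falls in MCF10A, 1 to 3 and 16 to 22 in DCIS.COM, 2 to 3 and 21 to 24 for the difference, 20 to 22 and 8 to 11 with pLOC-empty, and 10 to 14 and 15 to 19 with pLOC-*MALINC1*. A group left with 1 library was taken to vary like the others. Limma-voom and library totals were added after seeing the data. In limma-voom on the recovered reads 19 members rose and 11 fell in MCF10A, and 4 and 23 in DCIS.COM. The 2 planned count-model tests were not run.

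Same-numbered libraries deviated together by correlations of -0.129 (MCF10A) to 0.117 (DCIS.COM). With 2 libraries per group, each correlation rests on a single replicate difference per group. It cannot show whether same-numbered libraries shared a culture or batch. With the replicate block 17 rose and 11 fell in MCF10A and 3 and 23 in DCIS.COM, 2 and 24 differed, and the line comparisons gave 22 and 10, and 13 and 18. A crossed pairing in MCF10A gave 19 and 12. With 2 libraries per group and members down to 47 reads, small changes of low genes such as *ACER2* and *BBC3* were at the limit of what the libraries could show.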
